A study of Mus musculus with 14 samples.

Results

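The 6h response to BAFF was compared between mouse B cells that lack c-Rel and wild type B cells, as a difference of differences: the 6h minus 0h change in the knockout less the same change in wild type. Its members are the 8 libraries, of 14 in the series, that the labels place in 4 groups of 2: wild type at 0h and at 6h, and the c-Rel knockout (crel-/-) at 0h and at 6h. All were follicular B cells from the spleens of C57BL/6 mice, isolated with a bead kit that parts marginal zone from follicular cells. The labels give supplemented RPMI medium with 50 ng of BAFF per ml for each library, also for those at 0h. Sources used here do not give the age of the mice, how the knockout allele was made, or whether animals were pooled. They do not say either whether both libraries of a group stem from different animals, so a p-value covers the spread between libraries and no more. Replicate 1 of each group was sequenced in lane 7 and replicate 2 in lane 8. Without a group kept in medium alone, effects of BAFF and of culture time cannot be told apart. The other 6 libraries were wild type at 27h and cells lacking both RelB and c-Rel (relb-/-crel-/-) at 0h and 6h. They entered the scaling, the filter on low counts and the estimate of the spread. Values of the double knockout are given for a few genes only.

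BAFF is a cytokine of the tumour necrosis factor family that keeps mature B cells alive through receptors on their surface. Its signal reaches NF-kB, a family of transcription factors that bind DNA as pairs of subunits, among them RelA, RelB, c-Rel and the products of Nfkb1 and Nfkb2. c-Rel, encoded by Rel, is the subunit most closely tied to lymphocytes and is known for driving survival, growth and division genes in activated B cells. NF-kB also induces its own inhibitors, the IkB proteins and A20, so that its activity is limited in time.

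Levels are CPM, counts scaled to a common library size, and compare libraries within a gene but not genes with each other, since they are not scaled to gene length. Differences are log2 values ± standard error from an edgeR quasi-likelihood fit, and genes with an adjusted p under 0.05, over the 12630 tested, are those called here. Gene counts summed to between 10548983 and 11888765 in the 8 libraries. Among these 8, the 6h libraries of the knockout stood apart: their counts differed by a chi-square of 23.74 per gene. It was 5.04, 3.23 and 4.16 for the libraries of wild type at 6h, wild type at 0h and the knockout at 0h. Libraries of the double knockout, which share in the estimate of the spread, differed by 33.23 at 0h and 38.25 at 6h. The share of reads outside genes was 9.76% in replicate 1 and 5.21% in replicate 2 of the c-Rel knockout at 6h, against 11.46% and 9.67% in wild type at 6h. Summed CPM of 11 B cell markers lay between 17900 and 19500 in the 0h libraries, 11800 and 12000 in wild type at 6h, and 13800 and 15000 in the knockout at 6h, and none of the 11 was at 0 in all libraries of the knockout. Those of 10 follicular markers lay between 11200 and 11400 at 0h and between 4570 and 5150 at 6h, and none of the 10 was called in the difference of responses.

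Rel itself stood at 633 and 621 CPM in wild type at the start and 672 and 683 CPM after 6h, and at 58.3 and 52.4 CPM and then 111 and 95.3 CPM in the knockout. It was lower in the knockout by 3.50 ± 0.13 on the log2 scale at 0h and by 2.71 ± 0.13 at 6h. The 4 libraries labelled crel-/- thus lay below the 4 labelled wild type; which exons the knockout lacks is not stated. Its difference of responses was 0.79 ± 0.19 with an adjusted p of 0.057, which misses the threshold. The other NF-kB subunit genes were not called in the difference of responses. Relb, the partner of p52, stood at 115, 117, 150 and 164 CPM in wild type at the start and then 6h, and at 195, 168, 159 and 172 CPM in the knockout. It was called higher in the knockout at 0h (0.64, adjusted p 0.0385) and not at 6h (0.08, adjusted p 0.837). Differences of responses were -0.57 for Relb, -0.67 for Nfkb2, -0.49 for Rela and -0.32 for Nfkb1, with adjusted p between 0.16 and 0.496.

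The response differed for 215 genes, 1.7% of the genes tested. For 145 of them (1.15%) the response was lower in the knockout and for 70 (0.554%) it was higher. Lower and higher refer to the signed change, so that a larger fall counts as lower and a smaller fall as higher. In wild type alone 46.2% of genes were called between 0h and 6h and in the knockout 41.9%, so most of the response was not called different. With DESeq2 size factors in place of TMM scaling the split was 177 lower and 50 higher. All 215 genes had the same sign of the difference in lane 7 alone and in lane 8 alone. They were called from these same libraries, so a shared direction, by lane or with a library left out, was close to fixed beforehand and is no separate support. The number of calls moved with single libraries: it was 426 without replicate 1 and 44 without replicate 2 of the knockout at 6h, 33 and 16 without replicate 1 and 2 of wild type at 6h, 14 and 18 without replicate 1 and 2 of the knockout at 0h, and 9 and 14 without replicate 1 and 2 of wild type at 0h. Direction was kept by all 215 genes in each of these 8 fits, and the call was kept in each of them by 9 genes.

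How the genes came to differ was read from each genotype's own response. Over all genes tested 22.6% rose and 23.5% fell in wild type, and 21.8% rose and 20.1% fell in the knockout. Of the 145 with a lower response in the knockout, 33 rose in wild type and were not called in the knockout, 25 rose in wild type and fell in the knockout, 17 rose in both, 40 were not called in wild type and fell in the knockout, and 30 fell in both. Of the 70 with a higher response, 26 were not called in wild type and rose in the knockout, 13 fell in wild type and were not called in the knockout, 7 fell in wild type and rose in the knockout, 8 rose in both and 16 fell in both. The plot of both responses shows the 2 groups on either side of the line of equal response.

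**Figure D1:**
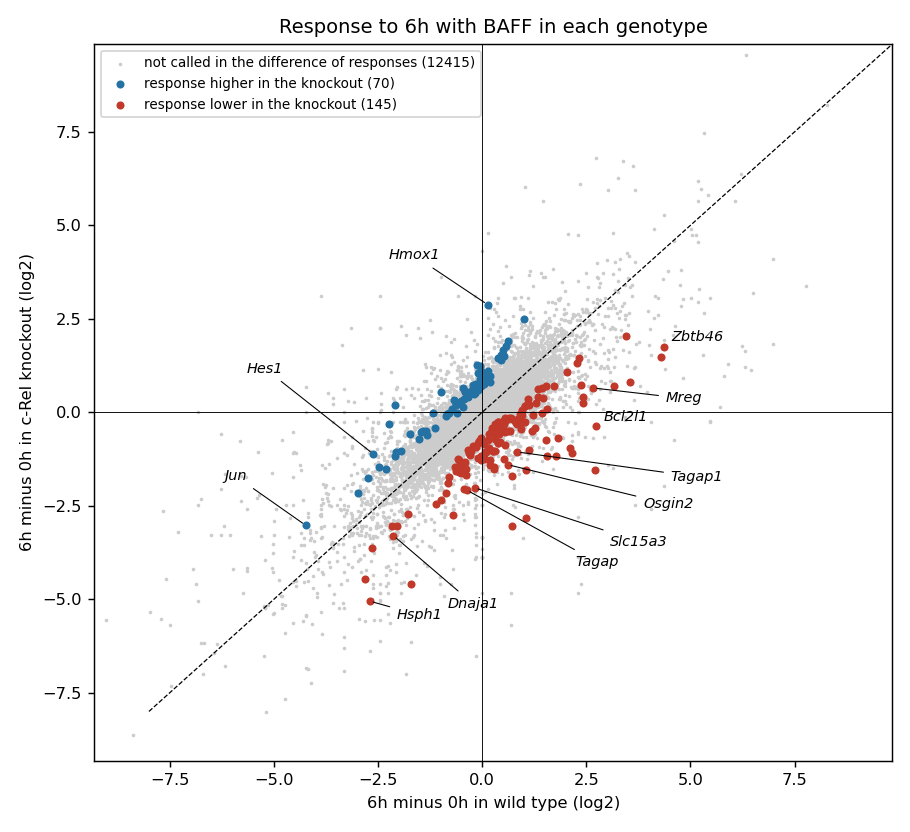
Change from 0h to 6h (log2) in wild type on the horizontal axis and in the c-Rel knockout on the vertical axis, 1 point per gene tested. Grey points were not called in the difference of responses. The 145 red points have a lower response in the knockout and lie below the dashed line of equal response, and the 70 blue points lie above it.

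The 215 genes were then separated by whether the genotypes already differed at 0h. Most, 112 genes or 52.1%, were called between genotypes at 6h and not at 0h. A further 45 (20.9%) were called at 0h and not at 6h, 9 (4.19%) at both times, and 49 (22.8%) at neither. For comparison 1.5% of all genes were called between genotypes at 0h and 3.54% at 6h, the latter 1.58% higher and 1.96% lower in the knockout. The difference of responses is built from the same libraries as the 0h and 6h comparisons, so these counts sort the genes and do not test them again. A 0h difference that misses the threshold is not an absence of difference: of the 112 genes, 95 had a 95% interval of the 0h difference within 2-fold either way, and the split depends on the 0h threshold. At an unadjusted p under 0.05, 151 of the 215 counted as different at 0h and 64 as different at 6h alone.

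Each class had its own shape. The 75 genes called at 6h and not at 0h with a lower response had a median genotype difference of 0.35 at 0h and -0.97 at 6h. Their median change was 0.61 in wild type and -0.82 in the knockout. The 37 with a higher response moved from a median of -0.23 at 0h to 0.71 at 6h, with a median change of -0.67 in wild type and 0.14 in the knockout. Among genes called at 0h and not at 6h, 34 were higher in the knockout at 0h (median 0.70) and close to wild type at 6h (median -0.22). Their median change was -0.04 in wild type and -1.06 in the knockout. The other 11 were lower at 0h (median -0.67) and had a median of 0.28 at 6h. The 49 genes called at neither time had small differences of opposite sign, with a median size of 0.45 at 0h and 0.40 at 6h.

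**Figure D2:**
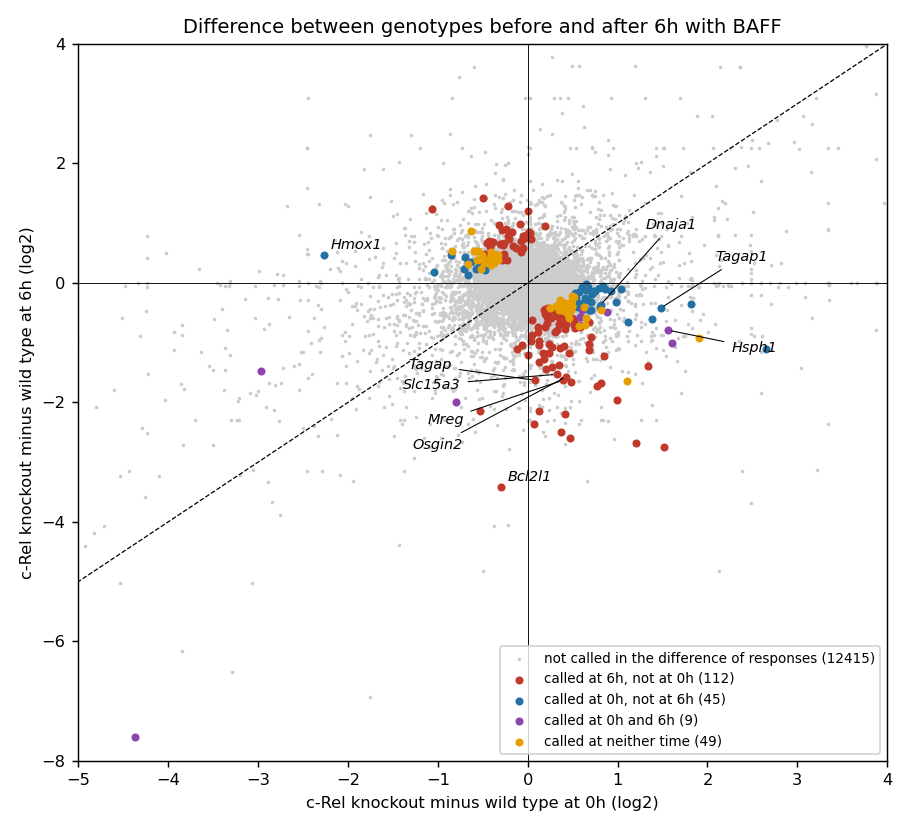
Difference between the c-Rel knockout and wild type (log2) at 0h on the horizontal axis and at 6h on the vertical axis, 1 point per gene tested. The dashed line marks equal differences at both times. The 112 red genes have a median size of 0.3 on the horizontal axis and 0.8 on the vertical axis, the 45 blue genes 0.7 and 0.24. Some red genes lie away from 0 on the horizontal axis as well (range -1.06 to 1.52), and the axes leave out 60 grey genes and no coloured gene.

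Among genes called between genotypes at 6h and not at 0h, 5 kept their call in the difference of responses with any library left out. These were Bcl2l1, Mreg, Osgin2, Slc15a3 and Tagap, all with a lower response in the knockout. Since c-Rel binds DNA, the 250 bases before the start sites of genes on both sides of the comparison are shown, from the RefSeq promoter table for GRCm38.p6. Capitals mark matches to a short form of the kB motif, GGG, any 5 bases and CC, or on the opposite strand GG, any 5 bases and CCC. Shown are Bcl2l1 (the most upstream start listed, chr2:152831729-152831978, minus strand), Mreg (chr1:72212315-72212564, minus strand), Tagap (chr17:7925750-7925999, plus strand), its relative Tagap1 (chr17:6961157-6961406, minus strand) and S1pr4, with a higher response in the knockout (chr10:81500138-81500387, minus strand).

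Bcl2l1: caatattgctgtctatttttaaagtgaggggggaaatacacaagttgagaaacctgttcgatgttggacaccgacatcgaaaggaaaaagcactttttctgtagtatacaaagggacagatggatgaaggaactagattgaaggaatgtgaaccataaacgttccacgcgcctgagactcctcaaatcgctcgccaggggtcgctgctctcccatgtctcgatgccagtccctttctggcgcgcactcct
Mreg: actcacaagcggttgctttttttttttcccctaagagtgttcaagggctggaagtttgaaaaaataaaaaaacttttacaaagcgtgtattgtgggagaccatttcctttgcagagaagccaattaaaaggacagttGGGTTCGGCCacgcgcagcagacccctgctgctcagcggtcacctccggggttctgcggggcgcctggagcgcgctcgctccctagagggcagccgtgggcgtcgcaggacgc
Tagap: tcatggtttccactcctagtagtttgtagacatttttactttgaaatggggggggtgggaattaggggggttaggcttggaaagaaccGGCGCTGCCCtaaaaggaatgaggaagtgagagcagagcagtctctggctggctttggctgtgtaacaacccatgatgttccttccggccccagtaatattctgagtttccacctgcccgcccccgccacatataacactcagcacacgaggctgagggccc
Tagap1: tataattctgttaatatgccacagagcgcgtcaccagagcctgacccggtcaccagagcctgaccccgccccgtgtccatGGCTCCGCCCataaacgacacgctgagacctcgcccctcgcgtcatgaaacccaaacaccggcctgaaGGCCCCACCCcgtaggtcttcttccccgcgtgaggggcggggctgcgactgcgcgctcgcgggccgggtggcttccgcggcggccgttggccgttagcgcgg
S1pr4: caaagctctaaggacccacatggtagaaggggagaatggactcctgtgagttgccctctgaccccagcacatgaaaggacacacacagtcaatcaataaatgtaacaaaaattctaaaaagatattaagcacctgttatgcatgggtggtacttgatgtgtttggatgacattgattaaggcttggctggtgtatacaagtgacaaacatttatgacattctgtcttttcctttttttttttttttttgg

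In these windows Mreg had 1 match, starting 113 bases before its start site, and Tagap 1 match at 162 bases. Tagap1 had matches at 170 and 102 bases, and the windows of Bcl2l1 and S1pr4 had none. Another start site listed for Bcl2l1, within its gene, had 2 matches, GGGGGTCTCC at 242 bases and GGAAAAACCC at 218 bases before it. The motif is common: 66.4% of tested genes with a listed promoter had a match, against 69.6% of the called genes and 64.9% of those called at 6h and not at 0h with a lower response. Those last shares are close to the share of all tested genes. Osgin2, Slc15a3, Hmox1 and Hes1 have no entry in the table.

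Bcl2l1 (ENSMUSG00000007659, chr2:152780668-152831728, GRCm38) encodes BCL-XL, which blocks the mitochondrial route to cell death. It stood at 10.5 and 9.68 CPM in wild type at the start and 62.8 and 72.4 CPM after 6h, and at 8.15 and 8.25 CPM in the knockout at the start and 5.28 and 7.36 CPM at 6h. The wild type libraries at 6h were far above the other 6, and the knockout libraries at 6h lay below those at 0h. Bcl2l1 rose in wild type (2.74) and was not called in the knockout (-0.37). Its difference of responses was -3.11 ± 0.26 (adjusted p 0.00033), -3.10 in lane 7 and -3.00 in lane 8, and adjusted p stayed between 0.000769 and 0.00604 with any library left out. At 0h the genotypes differed by -0.30 with a 95% interval from -0.70 to 0.10.

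Mreg (melanoregulin, ENSMUSG00000039395, chr1:72159442-72212307), known for its part in organelle transport, rose in both genotypes but less in the knockout. It stood at 44.4 and 46.9 CPM in wild type at the start and 276 and 306 CPM after 6h, and at 61.9 and 58.1 CPM and then 86.4 and 101 CPM in the knockout. The 4 groups did not overlap, and the order of the genotypes turned between 0h and 6h. The difference of responses was -2.03 ± 0.22 (adjusted p 0.00175).

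Osgin2 (ENSMUSG00000041153, chr4:15997121-16013888) moved in opposite directions. It stood at 75.9 and 72.4 CPM in wild type at the start and 108 and 118 CPM after 6h, and at 102 and 97.8 CPM and then 37.4 and 38.7 CPM in the knockout. It rose in wild type (0.61) and fell in the knockout (-1.4), a difference of -2.01 ± 0.23 (adjusted p 0.00238). The 95% interval of its 0h difference ran from 0.08 to 0.78, that of Mreg from 0.05 to 0.74 and that of Slc15a3 from 0.07 to 0.57, all above 0, although none of these 0h differences passed the threshold after adjustment.

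Slc15a3 (ENSMUSG00000024737, chr19:10839727-10859362), a peptide and histidine transporter of endolysosomes, fell in the knockout alone. It stood at 43.2 and 50.3 CPM in wild type at the start and 39.4 and 43.4 CPM after 6h, and at 61.3 and 55.8 CPM and then 13.7 and 15 CPM in the knockout. The wild type groups overlapped, and the knockout at 6h lay below all other libraries. The difference of responses was -1.85 ± 0.17 (adjusted p 0.000566).

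Tagap (ENSMUSG00000033450, chr17:7926000-7934897) encodes a GTPase-activating protein of lymphocytes, and fell in both genotypes but further in the knockout. It stood at 190 and 197 CPM in wild type at the start and 129 and 170 CPM after 6h, and at 204 and 205 CPM and then 44.7 and 52.1 CPM in the knockout. At 0h the groups lay close together without overlap, at 6h they were far apart, and the difference of responses was -1.70 ± 0.20 (adjusted p 0.0026). Tagap1 (ENSMUSG00000052031, chr17:6955011-6961156), a close relative nearby on the same chromosome, behaved differently at 0h. It stood at 14.1 and 14.9 CPM in wild type at the start and 24.9 and 26.9 CPM after 6h, and at 38.7 and 42.4 CPM and then 20.4 and 18.5 CPM in the knockout. It was higher in the knockout at 0h (1.48, adjusted p 0.000156) and not called at 6h (-0.42, adjusted p 0.132), and its difference of responses was -1.90 ± 0.20 (adjusted p 0.00144). Reads that align to more than 1 place are outside these counts, so the levels of this pair of related genes are uncertain. Of the 9 genes called with any library left out, 5 (Osgin2, Slc15a3, Tagap, Tagap1 and Dnaja1) overlap another annotated gene, and whether reads were counted by strand is not stated.

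**Figure D3:**
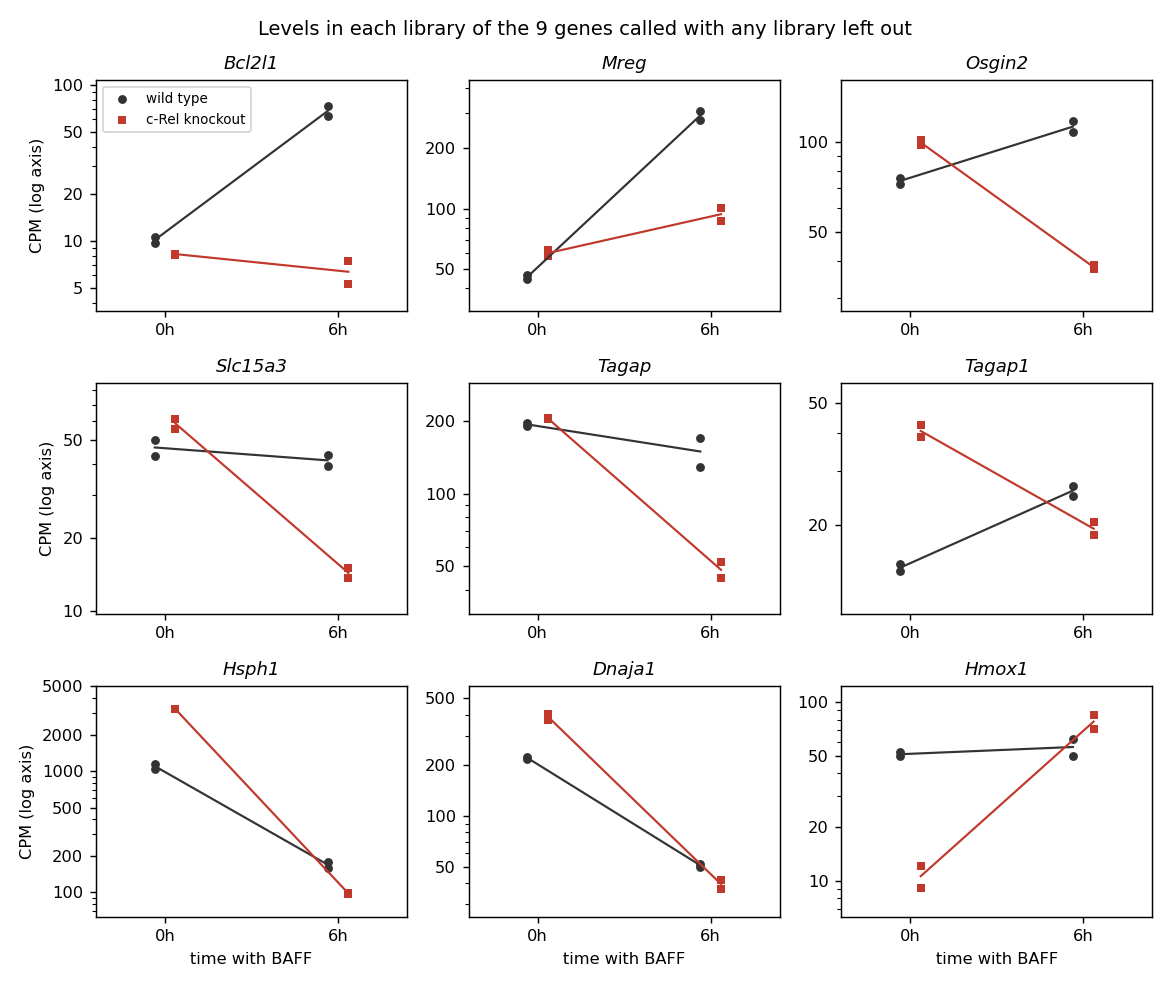
Levels (CPM, log axes that differ between panels) at 0h and 6h in wild type (dark circles) and the c-Rel knockout (red squares), 1 point per library and a line through the 2 group means, for the 9 genes called with any library left out. The lines cross in all panels but that of Bcl2l1, where the knockout stays below wild type. The wider gap is at 6h for Bcl2l1, Mreg, Osgin2, Slc15a3 and Tagap and at 0h for Tagap1, Hsph1, Dnaja1 and Hmox1.

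The double knockout, compared with the same wild type libraries, had differences of responses of -2.15 for Bcl2l1, -1.39 for Mreg, -1.81 for Osgin2, -0.87 for Slc15a3, -1.21 for Tagap and -2.38 for Tagap1, each called, with adjusted p between 0.000167 and 0.00572. Because the wild type libraries are shared, these values are set side by side and are not independent support.

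Bcl2l1 was the 1 survival gene called in the difference of responses. Of 11 pro-survival genes tested, 1 was called, lower, where 1.15% of all genes were. None was called at 0h, and 4 were lower in the knockout at 6h, where 1.96% of all genes were. Besides Bcl2l1 these were Bcl2a1b (-1.66, adjusted p 0.00201) and Cflar (-0.72, adjusted p 0.00933), inhibitors of the mitochondrial and death receptor routes, and the kinase gene Pim1 (-1.4, adjusted p 0.0173). Bcl2a1b has near copies, so its level is uncertain. Their differences of responses were -1.13, -0.39 and -1.15, with adjusted p of 0.104, 0.32 and 0.158. In the fit of the 8 libraries alone all 3 were called, and Pim1 was also called in DESeq2 (adjusted p 0.0158) and with no filter on low counts. The median over the list was -0.08, against 0.05 over all genes. Mcl1, Bcl2 and Xiap had differences of responses of 0.04 ± 0.16, 0.37 ± 0.27 and -0.03 ± 0.19. On the side of cell death, 1 of 15 genes was called, higher, where 0.554% of all genes were. This was Casp9, the initiator caspase of the mitochondrial route. It stood at 49.6, 48.7, 43.4 and 43.8 CPM in wild type and at 40.4, 41.5, 60 and 61.9 CPM in the knockout. Its response was higher in the knockout by 0.75 ± 0.15 (adjusted p 0.0337, and 0.037 to 0.167 with 1 library left out). Bcl2l11, which encodes the BH3-only protein BIM, was higher in the knockout at 0h (1.02, adjusted p 0.0242), with a difference of responses of -0.63 (adjusted p 0.282).

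Inhibitors of NF-kB and adaptors of its receptors differed in part. Of 11 genes for IkB proteins and the A20 group, 2 were called, both lower, where 1.15% of all genes were. Nfkbiz, which encodes an atypical nuclear IkB protein, stood at 102, 107, 209 and 266 CPM in wild type and at 127, 125, 95 and 83.3 CPM in the knockout. It rose in wild type (1.19) and was not called in the knockout (-0.50). Its difference was -1.69 ± 0.34 (adjusted p 0.0351). Nfkbie, encoding IkB-epsilon, stood at 299, 300, 319 and 313 CPM in wild type and at 496, 475, 223 and 240 CPM in the knockout. It was higher in the knockout at 0h (0.70, adjusted p 0.0234) and its difference of responses was -1.15 ± 0.19 (adjusted p 0.0152). At 6h Tnfaip3, which encodes A20, was lower in the knockout by 1.41 (adjusted p 0.0177) and Nfkbid by 1.53 (adjusted p 0.0471), with differences of responses of -1.59 and -1.81 that missed the threshold at adjusted p of 0.0692 and 0.111. Of 20 TRAF, cIAP and IKK genes 2 were called, both lower, against the same 1.15%. Traf1 rose in wild type from 98.4 and 103 CPM to 242 and 250 CPM, and stood at 137, 128, 160 and 153 CPM in the knockout (-1.05 ± 0.18, adjusted p 0.0179). Traf6 started higher in the knockout, at 202 and 205 CPM against 139 and 129 CPM, and met wild type at 6h (-0.66 ± 0.14, adjusted p 0.0337). With 1 library left out, adjusted p ran from 0.0503 to 0.174 for Nfkbiz, 0.0281 to 0.0986 for Nfkbie, 0.0268 to 0.121 for Traf1 and 0.0418 to 0.198 for Traf6.

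Of 45 genes that textbooks list as NF-kB targets, 6 were called in the difference of responses, all lower in the knockout, where 1.15% of all genes were: Bcl2l1, Icam1, Nfkbie, Traf1, Slamf1 and Il4i1. The difference was negative for 37 of the 45 and for 5683 of all 12630 genes tested, with medians of -0.65 and 0.05. The list was chosen with earlier results of these data known, so these counts describe its members and are not a test. At 0h 2 of the 45 were called higher in the knockout and 1 lower (median -0.05), where 0.918% and 0.578% of all genes were. At 6h 18 were called lower and none higher (median -0.65), where 1.96% and 1.58% of all genes were. Icam1, the adhesion receptor, stood at 98.3 and 103 CPM in wild type at the start and 124 and 141 CPM after 6h, and at 104 and 97.2 CPM and then 60.9 and 53.5 CPM in the knockout. The genotypes overlapped at 0h and were apart at 6h, with a difference of responses of -1.21 ± 0.20 (adjusted p 0.0155, and 0.0206 to 0.104 with 1 library left out). Il4i1, an amino acid oxidase, was the 1 of the 6 called lower in the knockout at 0h (-0.80, adjusted p 0.0348), and at 6h the difference was -1.99 (adjusted p 7.5e-05). Other members were lower at 6h with differences of responses that missed the threshold: Il2ra (CD25) at 131 and 136 CPM in wild type and 20.9 and 21.2 CPM in the knockout, Ccl4 at 323 and 420 against 68.7 and 103 CPM, Stat5a at 141 and 136 against 66 and 63.4 CPM, and Irf4 at 1220 and 1300 against 601 and 599 CPM. Leaving out single libraries, between 1 and 4 of the 45 were called: 1 without either 0h library of either genotype or without replicate 2 of wild type at 6h, 2 without replicate 1 of wild type at 6h or replicate 2 of the knockout at 6h, and 4 without replicate 1 of the knockout at 6h.

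The count of growth genes called depended on the fit. In the list of MYC and ribosome biogenesis genes 41 of 45 tested had a negative difference of responses (median -0.49), and 1 was called: Gnl3, nucleostemin, at 184, 193, 280 and 304 CPM in wild type and 241, 225, 167 and 160 CPM in the knockout (-1.14 ± 0.22, adjusted p 0.0259). Over all genes tested 5683 of 12630 had a negative difference. Called lower in the MYC and ribosome biogenesis list were 4 genes with DESeq2 size factors, 11 in DESeq2 and 19 with no filter on low counts. The fit of the 8 libraries alone called 24 lower, and at most 1 was called higher in each of these fits. They also called more genes lower over all: 177, 359, 472 and 719 in the same order, against 145 in the main fit. Myc was lower in the knockout at 6h (-1.37, adjusted p 0.0371), with a difference of responses of -1.53 ± 0.43 (adjusted p 0.112). The list's median response was 0.70 in wild type and 0.21 in the knockout. Cdk6, a G1 kinase, rose from 18.4 and 18 CPM to 49.5 and 51.7 CPM in wild type and from 19.7 and 20.3 CPM to 27.6 and 23.9 CPM in the knockout (-1.11 ± 0.19, adjusted p 0.0179). Psmd11, a proteasome lid subunit, was the 1 of 30 proteasome genes called (-0.78 ± 0.18, adjusted p 0.0482). Edem1, which directs misfolded glycoproteins to degradation, was the 1 of 27 genes of the unfolded protein and ATF4 list (-0.62 ± 0.14, adjusted p 0.0434). Over all genes 1.15% were called lower, so the single calls of Gnl3, Psmd11 and Edem1 say little about their lists. With 1 library left out the difference of responses ran from -1.19 to -1.08 for Gnl3, -1.21 to -1.01 for Cdk6, -0.86 to -0.69 for Psmd11 and -0.68 to -0.56 for Edem1. The call of Psmd11 was lost in each of these 8 fits, and those of Gnl3, Cdk6 and Edem1 in 7. With the replicate number as a block the calls of Psmd11 and Edem1 were lost (adjusted p 0.0507 for both).

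Tfrc, the transferrin receptor that brings iron into growing cells, was the 1 called, lower, of 12 amino acid and iron uptake genes, where 1.15% of all genes were. It stood at 187 and 194 CPM in wild type at the start and 419 and 469 CPM after 6h, and at 283 and 288 CPM and then 278 and 266 CPM in the knockout. It was higher in the knockout at 0h (0.58) and lower at 6h (-0.70), with a difference of responses of -1.29 ± 0.18 (adjusted p 0.00786). The call was lost without either 0h library of either genotype or without replicate 2 of wild type at 6h, where adjusted p ran from 0.0541 to 0.0702. Tfrc is also an erythroid marker, and of 14 erythroid markers tested 4, Tfrc among them, were higher in the knockout at 0h, where 0.918% of all genes were. Summed CPM of the list, most of it Tfrc, was 215 and 228 and then 429 and 480 in wild type, and 393 and 406 and then 288 and 278 in the knockout. Without Tfrc it was 27.9 and 33.5 in wild type and 110 and 118 in the knockout at 0h, and between 9.41 and 12.2 at 6h, and none of the markers counted was at 0 in all 4 knockout libraries. The part of erythroid cells in the Tfrc result was not tested.

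Heat shock chaperones, which fold and refold proteins, differed between genotypes at 0h. All 21 tested had a negative difference of responses (median -0.87), as had 5683 of all 12630 genes tested. Calls were made for 9 of the 21, all lower, where 1.15% of all genes were. This list, like the others here, was chosen with earlier results of these data known, so its counts describe the members and are not a test. Of the 21, 12 were called higher in the knockout at 0h (median 0.72), where 0.918% of all genes were. At 6h 1 was called lower (median -0.16), where 1.96% of all genes were. Their median response was -1.02 in wild type and -2.16 in the knockout. Summed CPM of the list was 10600 and 10800 in wild type at 0h, 18400 and 18600 in the knockout at 0h, 4970 and 5280 in wild type at 6h, and 4270 and 4710 in the knockout at 6h, so that the genotypes were apart at 0h and near each other at 6h. With 1 library left out between 2 and 5 of the 21 were called: 2 without either wild type library at 0h or replicate 2 of wild type at 6h, 3 without replicate 1 of wild type at 6h or either knockout library at 0h, and 5 without either knockout library at 6h.

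Hsph1 (HSP110, ENSMUSG00000029657, chr5:149614287-149636376), a large chaperone that recharges HSP70, stood at 1050 and 1150 CPM in wild type at the start and 159 and 179 CPM at 6h. In the knockout it stood at 3260 and 3230 CPM and then at 97.1 and 98.3 CPM. The knockout was above wild type at 0h (1.56, adjusted p 0.000224) and below it at 6h (-0.79, adjusted p 0.0164), and the difference of responses was -2.35 ± 0.22 (adjusted p 0.000572). Dnaja1 (ENSMUSG00000028410, chr4:40722150-40737149), an HSP40 partner of HSP70, stood at 218 and 225 CPM and then 49.9 and 51.8 CPM in wild type, and at 372 and 405 CPM and then 36.8 and 41.8 CPM in the knockout. It was called higher in the knockout at 0h (0.81, adjusted p 0.000899) and not called at 6h (-0.37, adjusted p 0.0702), with a difference of -1.18 ± 0.14 (adjusted p 0.0026). Both calls held with any library left out.

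The other 7 heat shock genes called were Hspd1, Hspa8, Hsp90aa1, Stip1, Ahsa1, Hspa4l and Chordc1, with differences of responses from -1.31 to -0.74. Hspd1, the mitochondrial chaperonin HSP60, stood at 226, 233, 123 and 131 CPM in wild type and 439, 469, 97.2 and 105 CPM in the knockout (-1.31 ± 0.18, adjusted p 0.00635). Its call was lost without either wild type library at 0h or replicate 2 of wild type at 6h, with an adjusted p of at most 0.0632. Hspa8, the constitutive HSP70, stood at 758, 777, 217 and 233 CPM and at 1150, 1100, 158 and 182 CPM (-0.95 ± 0.17, adjusted p 0.0178, and 0.0281 to 0.12 with 1 library left out). In the double knockout the differences of responses against wild type were -0.45 for Hsph1, 0.10 for Dnaja1, -0.03 for Hspd1 and 0.30 for Hspa8, with adjusted p between 0.197 and 0.921. Hspa1a and Hspa1b, the stress-induced HSP70 genes, had differences of responses of -2.67 ± 0.98 and -2.94 ± 0.82 (adjusted p 0.223 and 0.113). They are near-identical copies whose reads may be counted in part, so their values are uncertain.

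**Figure D4:**
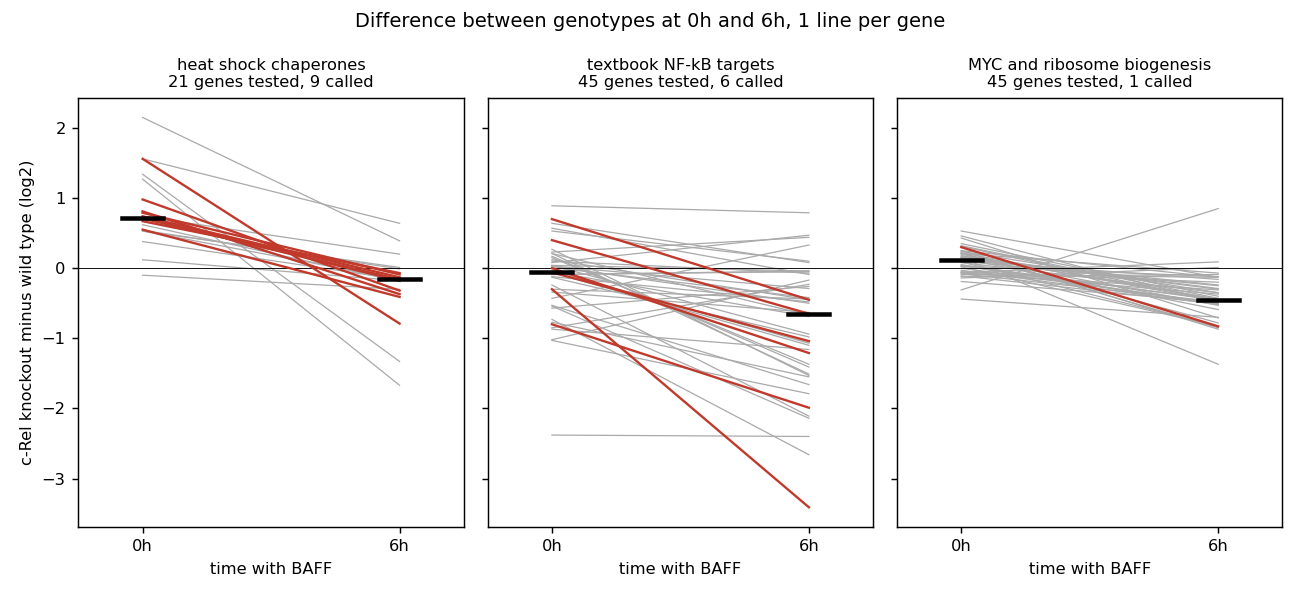
Difference between the c-Rel knockout and wild type (log2) at 0h and at 6h for the tested members of 3 lists, 1 line per gene, red where the gene was called in the difference of responses, with black bars at the medians. Heat shock genes start above 0 (median 0.72) and end near it (median -0.16), while NF-kB targets and ribosome biogenesis genes start near 0 (medians -0.05 and 0.11) and end below it (medians -0.65 and -0.45).

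Hmox1 (ENSMUSG00000005413, chr8:75093621-75100589), heme oxygenase 1, which degrades heme and is induced by stress, was the 1 gene with a higher response whose call held with any library left out. It stood at 49.8 and 52.6 CPM in wild type at the start and 62.3 and 50.1 CPM after 6h, and at 12.1 and 9.15 CPM and then 71 and 85 CPM in the knockout. The wild type libraries of both times overlapped, and the knockout started below all of them and ended above all of them. The difference of responses was 2.75 ± 0.32 (adjusted p 0.00283), 2.19 in lane 7 and 3.22 in lane 8. At 0h the knockout was lower by 2.27 (adjusted p 0.000494), and at 6h the genotypes were not called different (0.47, adjusted p 0.263). In the double knockout the value against the same wild type libraries was 3.12. No other of 15 antioxidant genes tested was called.

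Macrophage genes moved with Hmox1 at 0h. Of 18 monocyte and macrophage markers tested, 6 were lower in the knockout at 0h (median of the list -1.78), where 0.578% of all genes were. In the difference of responses 2 were called, Hmox1 and Apoe, both higher, where 0.554% of all genes were. C1qb stood at 17.7 and 16.6 CPM in wild type at the start and 1.38 and 0.696 CPM in the knockout, and was under 1 CPM in the 4 libraries at 6h. Adgre1, which encodes F4/80, stood at 25.8 and 26.4 CPM in wild type and 10.9 and 12.3 CPM in the knockout at 0h. Summed CPM of the list ran from 388 to 398 in wild type at 0h, 267 to 279 in wild type at 6h, 161 to 178 in the knockout at 0h and 374 to 479 in the knockout at 6h, and Fcgr1, too low to be tested, was at 0 in the 4 knockout libraries. Hmox1 and Apoe made up most of the sum at 6h. Without them it was 220 and 222 in wild type and 62.8 and 57.8 in the knockout at 0h, and 47.1 and 45.9 in wild type and 35.1 and 34.5 in the knockout at 6h. The sum of the rest was thus lower in the knockout at both times. Not every member was lower: Lyz2 was higher in the knockout at 6h and Ly6c2 at 0h, neither of them called. At 6h no member of the list was called lower. In bulk RNA fewer cells of a type and less RNA per cell cannot be told apart, and the part of macrophages in the Hmox1 result was not tested. Apoe, the lipid carrier, stood at 119, 124, 170 and 171 CPM in wild type and at 103, 94.4, 267 and 360 CPM in the knockout (1.17 ± 0.23, adjusted p 0.0272, and 0.015 to 0.148 with 1 library left out), and the part of macrophages in it was not tested either.

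Genes of lymphocyte surfaces and positioning moved both ways. Of 21 costimulatory and activation surface genes, 3 were called lower and 1 higher, where 1.15% and 0.554% of all genes were. Slamf7 stood at 68.2, 71.3, 81.4 and 93 CPM in wild type and at 81.4, 75.5, 37.5 and 39.5 CPM in the knockout (-1.35 ± 0.23, adjusted p 0.0155). Slamf1, another receptor of the same family, fell in both genotypes, from 62.5 and 62.2 CPM to 9.88 and 9.94 CPM in wild type and from 53.5 and 66 CPM to 4.75 and 4.9 CPM in the knockout (-0.97 ± 0.21, adjusted p 0.0405). Cd48, the ligand of CD244, started lower in the knockout, at 88.2 and 95.3 CPM against 130 and 137 CPM, and stood at 90.4 and 104 CPM against 79.7 and 80.8 CPM at 6h (0.82 ± 0.17, adjusted p 0.0325). S1pr4, a sphingosine 1-phosphate receptor of leukocytes, was the 1 called, higher, of 22 migration and adhesion genes. It stood at 52.9, 50.2, 48 and 51.7 CPM in wild type and rose in the knockout from 43.2 and 39.7 CPM to 85.4 and 110 CPM (1.29 ± 0.21, adjusted p 0.0133). S1pr1, its relative that guides exit from lymphoid organs, was higher in the knockout at 6h (0.99, adjusted p 0.00869), with a difference of responses of 0.91 ± 0.24 (adjusted p 0.0848). Leaving out 1 library, the difference of responses ran from -1.44 to -1.25 for Slamf7, -1.12 to -0.82 for Slamf1, 0.71 to 0.92 for Cd48 and 1.09 to 1.46 for S1pr4. The call of Slamf1 was lost in each of these 8 fits, that of Cd48 in 7, and those of Slamf7 and S1pr4 in 6. That of Slamf1 was lost as well with the replicate number as a block (adjusted p 0.0505).

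Of 34 B cell transcription factor genes 2 were called, both lower, where 1.15% of all genes were. Zbtb46, a zinc finger gene best known from dendritic cells, stood at 2.5 and 2.42 CPM in wild type at the start and 51.6 and 50.7 CPM after 6h, and at 8.36 and 6.76 CPM and then 25.1 and 25.6 CPM in the knockout. The knockout started above wild type (1.61, adjusted p 0.0189) and ended below it (-1.01, adjusted p 0.0293), with a difference of responses of -2.63 ± 0.38 (adjusted p 0.0081). Its call was lost without either wild type library at 0h or replicate 1 of the knockout at 0h, with an adjusted p of at most 0.0735. Of 8 dendritic cell markers tested Zbtb46 was the 1 called, summed CPM of the list lay between 63.2 and 104 in the 8 libraries and without Zbtb46 between 50.4 and 72.3, and the part of dendritic cells in it was not tested. Ahr, the aryl hydrocarbon receptor, stood at 66.4, 71.9, 132 and 132 CPM in wild type and at 123, 132, 99.4 and 88.1 CPM in the knockout. Its difference of responses was -1.37 ± 0.17 (adjusted p 0.00394), with an adjusted p of 0.0533 without replicate 1 of wild type at 0h.

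Of 27 immediate early genes, which respond within minutes to stimulation, 2 were called lower and 1 higher, where 1.15% and 0.554% of all genes were. The other 24 were not called, and the median change of the list was -1.77 in wild type and -1.76 in the knockout. Jun, an AP-1 subunit, stood at 702 and 683 CPM in wild type at the start and 38.1 and 35.3 CPM after 6h, and at 332 and 339 CPM and then 36.5 and 46.3 CPM in the knockout. It was lower in the knockout at 0h (-1.04, adjusted p 0.0144) and level with wild type at 6h, so its response was higher in the knockout by 1.22 ± 0.27 (adjusted p 0.0434). Egr2 (-0.99 ± 0.18, adjusted p 0.0187) and the nuclear receptor gene Nr4a3 (-1.79 ± 0.34, adjusted p 0.0314) differed at 6h and not at 0h. Nr4a3 stood at 126, 115, 137 and 156 CPM in wild type and at 181, 205, 65 and 70 CPM in the knockout. With 1 library left out the difference of responses ran from 1.04 to 1.38 for Jun, -1.12 to -0.85 for Egr2 and -1.89 to -1.7 for Nr4a3. The call of Nr4a3 was lost in each of these 8 fits, that of Jun in 7 and that of Egr2 in 6.

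Among markers of B cell subsets, Hes1 fell less and Plac8 rose more in the knockout than in wild type, while Dusp16 and Plscr1 fell in the knockout (-1.25 and -1.27) and were not called in wild type (0.08 and 0.18). Hes1, a Notch target listed for marginal zone B cells, fell from 57.8 and 60.5 CPM to 9.24 and 9.94 CPM in wild type and from 50 and 51.7 CPM to 21.5 and 25.4 CPM in the knockout (1.51 ± 0.27, adjusted p 0.0187). Plac8 rose from 478 and 463 CPM to 671 and 724 CPM in wild type and from 480 and 463 CPM to 1390 and 1800 CPM in the knockout (1.19 ± 0.20, adjusted p 0.0174). Dusp16, a MAP kinase phosphatase, had a difference of responses of -1.33 ± 0.22 (adjusted p 0.0155), and Plscr1, a B-1 marker in the list used here, one of -1.45 ± 0.25 (adjusted p 0.0178). Of 12 marginal zone markers 2 were called higher and 1 lower, and of 11 B-1 markers 1 was called lower, where 0.554% of all genes were called higher and 1.15% lower. Summed CPM of the marginal zone list was 2520 to 2690 and 2850 to 2900 in wild type and knockout at 0h, and 1850 and 2700 to 3090 at 6h. Without the 3 called genes it was 1030 to 1100 in wild type and 1210 to 1240 in the knockout at 6h, so Plac8 carried most of the gap, and the part of marginal zone cells in these results was not tested. The difference of responses with 1 library left out ran from 1.38 to 1.62 for Hes1, 1.0 to 1.37 for Plac8, -1.43 to -1.22 for Dusp16 and -1.58 to -1.33 for Plscr1. Of these 8 fits, the calls of Hes1, Plac8 and Plscr1 were lost in 7 and that of Dusp16 in 6.

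Other programmes of the response had no member called in the edgeR fit of all libraries. These were the lists of glycolysis and hypoxia genes (31 tested), cholesterol and fatty acid synthesis (31), DNA replication (38), mitosis (25), interferon-stimulated genes (34), MHC class II presentation (12), B cell receptor signalling (26), nuclear oxidative phosphorylation (38), TNF receptors (14), cytokine receptors (23) and chemokines and their receptors (13). The median change was 1.94 in wild type and 2.07 in the knockout for glycolysis and hypoxia genes, and -1.4 and -1.5 for interferon-stimulated genes. For MHC class II genes it was -1.27 and -1.38, and for cholesterol and fatty acid synthesis 0.97 and 0.69. Of the cholesterol and fatty acid genes 5 were lower in the knockout at 6h, where 1.96% of all genes were. Other fits called some members: DESeq2 called 3 cholesterol and 2 chemokine genes, 1 cytokine receptor gene and 1 B cell receptor signalling gene lower, and 2 B cell receptor signalling genes and 1 oxidative phosphorylation gene higher. Over all genes DESeq2 called 359 lower and 151 higher. In the fit of the 8 libraries alone 7 cholesterol genes were called lower, where 719 of all genes were. No MHC class II or DNA replication gene was called in any of the 5 alternatives that keep every library. In the edgeR fit a simulated difference of 1 on the log2 scale was recovered for 38% of genes when negative and 46% when positive. The simulation gave all groups the same spread per gene, while the noise differed between the groups here. These shares may therefore not hold for this comparison, and a list without a call is not shown to respond equally.

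Outside the named lists, Mir155hg, the host transcript of the lymphocyte microRNA miR-155, is given here after its values were seen. It stood at 5.42 and 6.2 CPM in wild type at the start and 50.6 and 54.4 CPM after 6h, and at 10.1 and 10.3 CPM and then 19.6 and 13.4 CPM in the knockout. The difference of responses was -2.48 ± 0.32 (adjusted p 0.00473, and at most 0.0557 with 1 library left out). Vsir, which encodes the checkpoint protein VISTA, was chosen in the same way. It stood at 52.2, 58.5, 150 and 168 CPM in wild type and at 63.6, 56.4, 28 and 44.3 CPM in the knockout (-2.25 ± 0.32, adjusted p 0.00866, and at most 0.0759 with 1 library left out).

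The 9 genes called at both times and in the difference of responses were Hsph1, Zbtb46, Ahr, Tfrc, Il4i1, Nbn, Morf4l2, Gpr137b-ps and H60b, and all 9 were lower in the knockout at 6h. Of these 6 were higher in the knockout at 0h, so that the order of the genotypes turned. H60b, a ligand of the receptor NKG2D, was the 1 with a higher response: it stood at 8.13, 9.68, 18.2 and 17.7 CPM in wild type and at 1.16, 1.09, 5.98 and 6.86 CPM in the knockout (1.49 ± 0.34, adjusted p 0.0434, and at most 0.201 with 1 library left out). It stayed below wild type at both times, and the gap narrowed.

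A further 50 genes differed between genotypes at both times without a called difference of responses, 25 higher and 25 lower in the knockout, each in the same direction at 0h and at 6h. Rel is one of them. Ifi204, of the Ifi200 family of DNA sensors on chromosome 1, stood at 0.417, 0.194, 0.458 and 0.17 CPM in wild type and at 40, 34.3, 16.6 and 12 CPM in the knockout. Its relative Ifi213 went the other way, at 42.3, 44.3, 10.1 and 9.43 CPM in wild type and 1.69, 2.78, 1.06 and 0.572 CPM in the knockout. Family members share sequence, so their counts are uncertain. Sfn, 14-3-3 sigma, was lower in the knockout by 2.77 at 0h and 2.31 at 6h, and Hdac1, a histone deacetylase, by 1.06 and 1.21. Slamf6, a surface receptor, was higher by 1.12 and 0.87. Of the 50 genes 1, Rel itself, lies within 10 Mb of Rel (2.0%, against 0.665% of all genes tested). Several of the others lie near each other elsewhere. On chromosome 1 Slamf6 starts at base 171917515, Ifi213 at 173566283 and Ifi204 at 173747293. Slamf7 (171632403), Cd48 (171682009) and Slamf1 (171767127), called in the difference of responses, start close by. On chromosome 4 Hdac1 starts at 129516104 and Sfn at 133600556. The part of genetic background around these genes was not tested.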

How the data were processed

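Follicular B cell RNA was sequenced on Illumina libraries after poly-dT reverse transcription, per the labels' protocols. The deposited values are raw counts of reads per Ensembl gene, 1 table per library, which the authors did not normalize, as the whole numbers in the files show. CASAVA 1.8.2 is named in the submitters' processing notes, and the aligner, counter and build are not stated. Reads aligned to more than 1 place (38.77 to 49.85% per library) are outside the gene counts, which lowers genes with near copies.

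Of 39179 gene IDs 37607 matched symbols in GENCODE M21 (GRCm38), and the build behind the counts may differ. Counts of all 14 libraries were scaled by TMM and fitted in edgeR 4.0.16 (R 4.3.3, limma 3.58.1; filterByExpr, glmQLFit with robust set, glmQLFTest, two-sided), with 7 residual degrees of freedom and Benjamini-Hochberg adjustment. Standard errors are Wald errors of that fit, and lane values used a pseudocount of 0.5 CPM. Named were Rel and Relb, called genes whose average log2 CPM was 3 or more and whose call held with any library left out, and members of the lists by smallest adjusted p. The members and the 45 lists were chosen with earlier results of these data known. Alternatives were DESeq2 size factors, no filter, DESeq2 1.42.0, a replicate block, the 8 libraries alone, other 0h thresholds and each library left out; leaving out 1 replicate at both times was added after seeing the data. Promoters were read without the 50 bases after the start. The fit was tested on simulated counts. Tables and figures used Python 3.11.15, NumPy 2.4.6, pandas 2.3.3 and Matplotlib 3.10.9.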

Additional observations from a re-analysis of the deposited data

Results flagged for a closer look

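For the 36 named genes given here the 6h response differed between genotypes by the test of the difference itself, the difference of responses in the edgeR fit, and each value is that difference on the log2 scale. At both ends stand Bcl2l1 (-3.11) and Hmox1 (2.75). The others whose call held with any library left out were Hsph1 (-2.35), Mreg (-2.03), Osgin2 (-2.01), Tagap1 (-1.90), Slc15a3 (-1.85), Tagap (-1.70) and Dnaja1 (-1.18).

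Calls that at least 1 left-out library ended were lower in the knockout for the NF-kB regulators Nfkbiz (-1.69), Nfkbie (-1.15), Traf1 (-1.05) and Traf6 (-0.66), and for the surface genes Slamf7 (-1.35), Icam1 (-1.21) and Slamf1 (-0.97). They were lower as well for the transcription factor genes Zbtb46 (-2.63), Nr4a3 (-1.79), Ahr (-1.37) and Egr2 (-0.99), and for the chaperone genes Hspd1 (-1.31) and Hspa8 (-0.95). Growth and protein turnover genes in this group were Tfrc (-1.29), Gnl3 (-1.14), Cdk6 (-1.11), Psmd11 (-0.78) and Edem1 (-0.62), and the subset markers were Plscr1 (-1.45) and Dusp16 (-1.33). The response was higher in the knockout for Hes1 (1.51), S1pr4 (1.29), Jun (1.22), Plac8 (1.19), Apoe (1.17), Cd48 (0.82) and Casp9 (0.75). Of the calls in this paragraph, those of Nfkbiz, Nr4a3, Slamf1 and Psmd11 were lost in each of the 8 fits with 1 library left out. That of Ahr was lost in 1, and the rest were lost in 3 to 7.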

How the results depend on the processing

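The count of genes with a different response was 215 (70 higher, 145 lower), with 227 under DESeq2 size factors, of which 195 were shared. It was 654 (182 and 472) with no filter on low counts, 510 (151 and 359) in DESeq2 and 1249 (530 and 719) in a fit of the 8 libraries alone. With 1 library left out it ran from 9 to 426 (1 to 172 higher, 8 to 254 lower). Leaving out a replicate at both times, chosen after seeing the data, gave 4 and 2 calls without replicate 1 and 2 of wild type and 1 and 2 without those of the knockout, 0 of them higher each time. All 215 kept their direction in the 5 alternatives that keep every library and in the 8 fits with 1 left out. Calling them on the same libraries all but fixed this beforehand, and the cause of the changed counts was not tested.

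Between genotypes at 0h, 189 genes were called, and 648 with no filter, 387 in DESeq2, 1034 with the 8 libraries alone, 39 to 191 with 1 library left out, and 23, 24, 44 and 33 without replicate 1 or 2 of wild type or of the knockout at both times. At 6h, 447 were called, and 1030 with no filter, 1877 with the 8 libraries alone, 70 to 448 with 1 left out, and 36, 26, 233 and 40 in the same order. The wild type response had 5830 calls, 2325 and 2575 without its replicate 1 or 2 at both times, and the knockout response 5297, 2749 and 3010.

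The split into genes called at 0h, at 6h and not at 0h, and at neither time was 54, 112 and 49. It was 119, 88 and 8 with a 0h threshold of adjusted p under 0.2, 151, 64 and 0 with unadjusted p under 0.05, and 88, 93 and 34 with a 0h log2 difference of at least 0.5. It was 200, 322 and 132 with no filter, 133, 237 and 140 in DESeq2, and 396, 673 and 180 with the 8 libraries alone. The ranges with 1 library left out were 4 to 58, 5 to 214 and 0 to 154. Without replicate 1 or 2 of wild type at both times the splits were 1, 3, 0 and 0, 2, 0, and without those of the knockout 0, 1, 0 and 0, 2, 0.

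Replicate numbers were checked for pairing by correlating deviations from group means over 8968 genes: the 6 pairs of the 4 groups ranged from -0.089 to 0.42. Libraries of the same genotype at 0h and 6h deviated together (0.159 in wild type, 0.249 in the knockout), as did both genotypes at 6h (0.42), but not those at 0h (-0.089), so the numbers, which are also lanes, are not taken to pair all groups. With the replicate number as a block 209 genes were called (61 higher, 148 lower), 184 of them among the 215, and the split was 61, 110 and 38. The block gave 245 calls at 0h, 490 at 6h, 5938 in the wild type response and 5340 in the knockout response. Among named genes Edem1, Slamf1 and Psmd11 missed the threshold under the block, with adjusted p from 0.0505 to 0.0507. Gained were Rel, Nfkb2 and Pim1 with no filter and in DESeq2, and these 3 with Relb, Rela, Bcl2a1b and Cflar with the 8 libraries alone. At 2 libraries per group, simulated differences of 2 on the log2 scale were recovered for 88 to 90% of genes and differences of 1 for 38 to 46%, with 7 false calls among 138.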
